A study of Rattus norvegicus with 6 samples.

Results

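Ion channel genes were read in neural stem/progenitor cells (NSPCs) of the rat with 6 RNA-seq libraries. NSPCs are dividing cells able to form neurons and glia. Members were the rows with a count in at least 1 library whose symbol is a potassium (Kcn), HCN, sodium (Scn), calcium (Cacna, Cacnb, Cacng), chloride (Clcn), Trpc, Trpm, Trpv, Orai, Stim or Ryr family name with its number, together with Itpr1, Itpr2, Itpr3, Pkd2, Slc8a1 and Piezo1. Of 172 such rows listed, 61 had a count, out of 9566 rows with a count among the 17048 rows in each table. All cells were labelled wild type, were kept for 24 h in stemness-maintaining medium and grew on carbon films of nanotubes and graphene oxide nanoribbons. The films were “High” (supraphysiological conductivity), “Medium” and “Low” (both in the range of neural tissue), with 2 libraries for each. Per the study's methods the cells came from the telencephalon of mid-gestation Sprague-Dawley rat embryos, with the meninges taken off. A batch, the sex of the embryos, and whether replicates were separate cultures are not given in the sources used here, so p-values measure only the spread between these libraries, which may be technical.

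Ion channels are membrane proteins that open a path for one or a few kinds of ion. Potassium channels set the resting potential, voltage-gated sodium and calcium channels carry action potentials and calcium entry in neurons, and auxiliary subunits tune their gating and traffic. In progenitors, which fire few or no action potentials, calcium also enters by other routes: STIM proteins sense the calcium left in the endoplasmic reticulum (ER) and open ORAI pores at the plasma membrane, and inositol trisphosphate receptors (Itpr genes) release calcium from the ER.

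Libraries were made with QuantSeq, which counts the 3′ end of each polyadenylated transcript, so counts do not grow with transcript length and levels of different genes can be set side by side as CPM, counts scaled to a common library size, here with TMM factors. The High libraries held 5478066 and 5412882 counts, the Medium libraries 5124863 and 5914540, and the Low libraries 6213676 and 5460031. The libraries differed in how many genes they held. Medium replicate 1 had a count in 5355 rows and Medium replicate 2 in 7809, with the other 4 libraries between 6689 and 7214. Of all counts, 26.1% and 38.4% fell on ribosomal RNA in the High libraries, against 7.16% to 13.0% in the other 4 libraries. The progenitor genes Vim, Sox9 and Sox2 were present in all 6 libraries, Sox2 at 1303 and 1116 counts on High, 3484 and 3377 on Medium, and 4869 and 4068 on Low. The summed level of the 7 of 8 progenitor markers with a count was 3446 and 3183 CPM on High, 5454 and 5483 on Medium, and 4551 and 6151 on Low, led by Vim, with Prom1 at 0. Not all members of that list were lower on High, as Hes1 was at 72.2, 50.01 and 33.4 CPM and Fabp7 at 214, 248 and 80.1 CPM on average for High, Medium and Low. Of 8 neuron markers, Rbfox3 and Syt1 were at 0 throughout, and the summed level of the other 6 was 32.8 and 12.6 CPM on High, 0.171 and 0.980 on Medium, and 33.8 and 29.6 on Low.

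Detection of channel genes was sparse, and the widest gap was between the Medium replicates. A count above 0 was found for 29 and 26 of the 61 genes in the High libraries, 16 and 36 on Medium, and 25 and 30 on Low. The extremes were thus both Medium libraries, at 26.2% and 59.0% of the channel genes, and the same libraries were lowest and highest for all rows with a count, at 56.0% and 81.6%. Thinning every library, without its ribosomal RNA rows, to the smallest such total left an expected 15.9 genes in Medium replicate 1 and 34.2 in Medium replicate 2. Only 9 channel genes (14.8%) had a count in all 6 libraries, where 41.3% of all rows did, and 27 (44.3%) had a count in a single library, where 14.4% of all rows did. Among channel genes detected on a film, both replicates held a count for 41.0% in High, 33.3% in Medium and 52.8% in Low, against 71.5%, 61.5% and 72.9% of all rows. The median over channel genes of the total count was 114, and over all rows 857.5. A gene at 0 in a library could still be present at up to 3 counts, which is 0.433 to 0.713 CPM. Such a limit, like any interval on these counts, covers counting error alone, since amplified copies cannot be told from independent molecules.

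**Figure D1:**
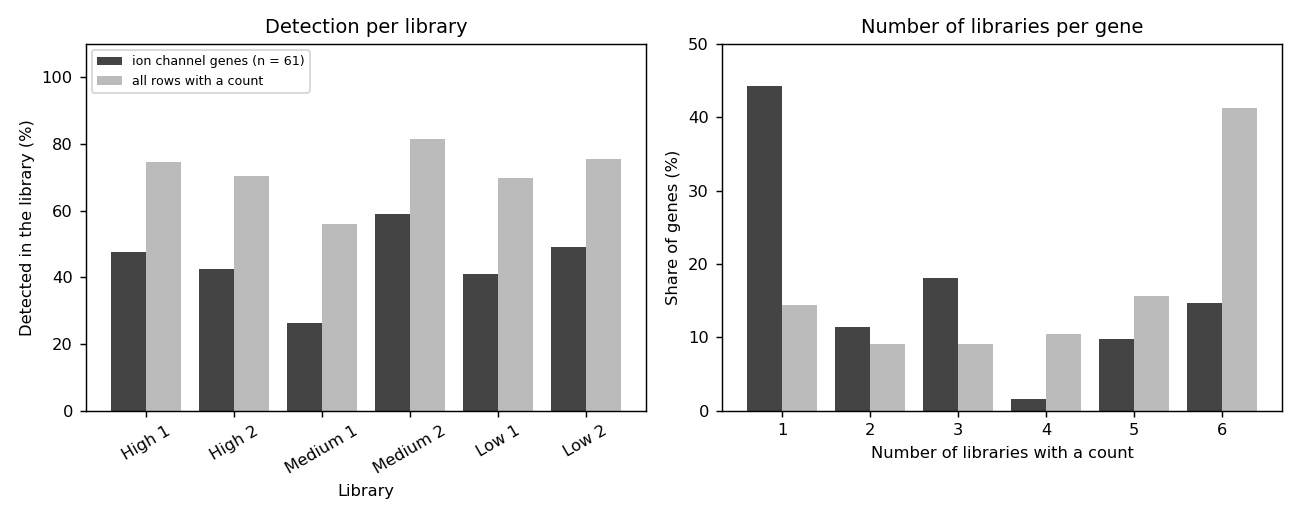
Left, share (%) of ion channel genes (dark bars, n = 61) and of all rows with a count (light bars, n = 9566) detected in each library; right, share (%) of the same genes by the number of libraries in which they had a count. Channel genes lay below all rows in every library, and 44.3% of them were seen in a single library.

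The channel classes differed in how many of their listed genes were seen. All 5 store-operated entry genes (Stim1, Stim2, Orai1, Orai2, Orai3) had a count, as did 3 of 4 ER release channels, 3 of 4 sodium channel beta subunits and 4 of 7 CLC chloride channels and exchangers. Voltage-gated potassium pores were seen for 9 of 39 genes, inward rectifiers for 4 of 15, two-pore potassium channels for 3 of 13, and TRP and polycystin channels for 5 of 20. Calcium channel pores reached 5 of 10, their auxiliary subunits 5 of 16, sodium channel pores 4 of 10, calcium- or sodium-activated potassium channels 4 of 7 and potassium channel auxiliary subunits 5 of 16. The 4 HCN genes, which encode hyperpolarization-activated pacemaker channels, had 0 counts in all 6 libraries.

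**Figure D2:**
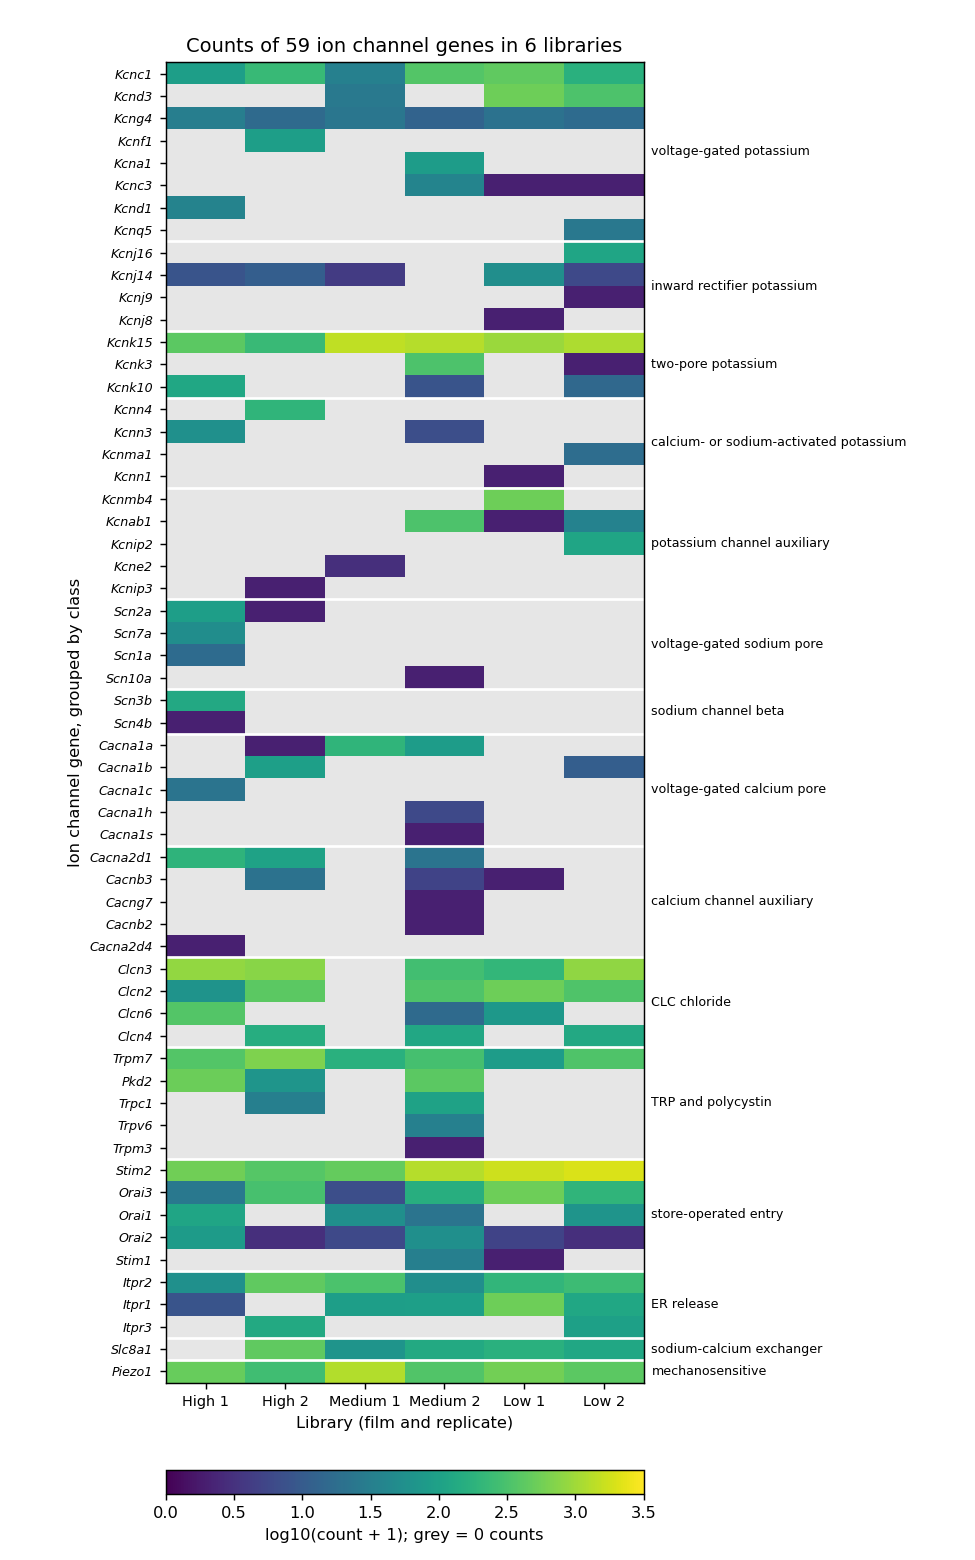
Counts of 59 of the 61 ion channel genes (rows, grouped by class) in the 6 libraries (columns), coloured by log10(count + 1), with 0 counts in grey. Kcnc1, Kcng4, Kcnk15, Trpm7, Stim2, Orai3, Orai2, Itpr2 and Piezo1 had a count in every library, while most genes were grey in 3 or more libraries.

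The 9 genes found in every library came from 6 classes. They were the potassium channel genes Kcnc1, Kcng4 and Kcnk15, the store-operated entry genes Stim2, Orai3 and Orai2, the divalent cation channel and kinase gene Trpm7, the ER release channel gene Itpr2 and the mechanosensitive channel gene Piezo1. By mean level over the 6 libraries the order was Stim2 (180 CPM), Kcnk15 (155), Piezo1 (96.9), Clcn3 (94.2), Trpm7 (62.7), Clcn2 (50.1), Itpr2 (41.9), Kcnc1 (38.5), Orai3 (35.4) and Pkd2 (31.6). Neighbours in this order overlapped in their library values, so the order is a description of the means. Kcnk15 was the sole tested channel gene whose replicates lay within 2-fold of each other in CPM on every film, and Kcng4 missed this narrowly, with 3.93 and 1.96 CPM on Medium.

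**Figure D3:**
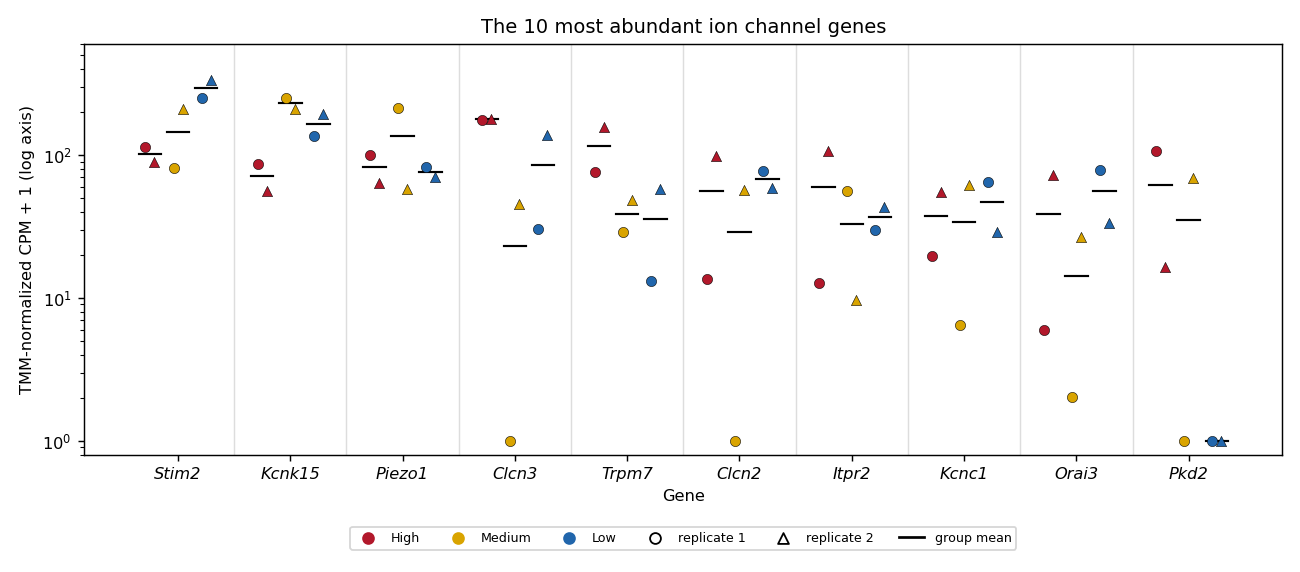
TMM-normalized CPM + 1 (log axis) of the 10 channel genes with the highest mean level, for each library (red High, yellow Medium, blue Low; circles replicate 1, triangles replicate 2) with group means as bars (n = 2). The 4 Low and Medium values of Kcnk15 lie above both High values, whereas Clcn3, Clcn2 and Pkd2 have a library at 0.

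To ask whether channel genes differed between films, 28 of the 61 passed edgeR's filterByExpr and were tested among 7729 genes. With edgeR's quasi-likelihood test, 0 of 28 had an adjusted p below 0.05 in each of 4 comparisons. Over all genes the share called was 0.129% for Low and Medium averaged and set against High (0.0388% higher, 0.0906% lower), 0.0518% for Low against High, 0.0129% for Medium against High and 0% for Low against Medium. At an unadjusted p under 0.05 there were 2 channel genes for Low and Medium averaged (7.14%, Kcnk15 higher and Pkd2 lower), where 5.5% of all genes were called, 2.69% higher and 2.81% lower. Low against High gave 3 (Stim2 and Kcnd3 higher, Pkd2 lower; background 4.27%, of which 2.56% higher and 1.71% lower), Medium against High gave 1 (Kcnk15 higher; background 4.04%, of which 2.39% higher and 1.64% lower) and Low against Medium gave 1 (Pkd2 lower; background 1.51%, of which 0.725% higher and 0.789% lower). limma-voom likewise called 0 in all 4 comparisons. DESeq2 called 3 for Low and Medium averaged (Pkd2, Kcnd3 and Kcnk15), 2 for Low (Pkd2 and Kcnd3), 1 for Medium (Kcnk15) and 1 between Low and Medium (Pkd2), among 375, 300, 307 and 116 of all genes. In 5 of the 28 genes (17.9%) the 4 Low and Medium libraries lay outside both High libraries, Kcnk15 and Itpr1 above them and Clcn3, Trpm7 and Cacna2d1 below, beside 18.2% of all genes tested, 8.06% above and 10.1% below. For 1 gene, 4 libraries set against 2 allow an exact two-sided permutation p of 0.133 at the least. All films are compared with the same 2 High libraries, so the comparisons are not independent.

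As a group, 20 of the 28 tested genes had a log2 fold change below 0 for Low and Medium averaged against High, with a median of −0.91, beside 54.1% below 0 and a median of −0.12 over all genes tested. Followed through fits without 1 High library, these genes gave different answers. Without High replicate 1, 16 of the 28 were below 0 with a median of −0.82, where the genes tested with all 6 libraries had 45.6% below 0 and a median of 0.18. Without High replicate 2, 11 of the 27 still tested were below 0 with a median of 0.87, beside 49.2% and 0.03. These fits also admitted 13 and 17 other channel genes, of which 3 and 7 were below 0.

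Potassium channels held both evenly counted members and many of the sparsest. Kcnk15, a two-pore channel gene, had 416 and 232 counts on High, 1475 and 1288 on Medium, and 935 and 1161 on Low. Both High libraries were lowest and the Medium libraries highest, without overlap between High and the other films. Its level was 70.2 ± 21.4 CPM (SD, n = 2) on High, 231 ± 29.5 on Medium and 164 ± 41.8 on Low, a log2 fold change of 1.47 (SE, the standard error, 0.54; edgeR adjusted p = 0.801) for Low and Medium averaged. In the RefSeq annotation of assembly GRCr8 its gene overlaps Rims4, which had 0 counts in all 6 libraries. Kcnc1, a fast voltage-gated channel of the delayed rectifier type, had 91 and 229 counts on High, 32 and 370 on Medium, and 442 and 168 on Low. Each film's range overlapped the others, and the log2 fold change was 0.09 (SE 1.69).

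Kcng4, a modifier subunit that does not form channels on its own, was low and even, at 30 and 15 counts on High, 23 and 12 on Medium, and 20 and 16 on Low. Kcnd3, a transient (A-type) channel gene, was at 0 in both High libraries, at 25 and 0 counts on Medium, and at 527 and 334 on Low. Its Low level of 65.9 ± 14.3 CPM was at least 99.3-fold higher than in High, with High set to 3 counts per library, a bound for counting error alone. edgeR's quasi-likelihood test for Low against High gave an adjusted p of 0.899. Kcnj14, an inward rectifier gene seen in 5 libraries, ran from 0 counts in Medium replicate 2 to 52 in Low replicate 1.

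Several potassium channel genes had a sizeable count in 1 library alone. Kcnmb4, an auxiliary subunit of the calcium-activated BK channel, had 536 counts in Low replicate 1 and 0 elsewhere. Kcnn4, an intermediate-conductance calcium-activated channel, had 194 in High replicate 2, while Kcnj16 and Kcnip2 each had 114 in Low replicate 2. Kcnk3 had 327 counts in Medium replicate 2 and 1 in Low replicate 2. In each case the other replicate of the same film held at most 1 count, so the count was not seen again in the film's second library.

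Sodium channel pore genes were seen almost wholly in 1 High library. High replicate 1 had 92 counts of Scn2a, 51 of Scn7a and 16 of Scn1a, and 130 of the beta subunit gene Scn3b. High replicate 2 had 1 count of Scn2a and 0 of the other 3, and none of these genes had a count on Medium or Low. Scn1a, Scn2a and Scn7a lie near each other in the RefSeq annotation, with 4 protein-coding genes between Scn2a and Scn1a and 1 between Scn1a and Scn7a. The same library also held 100 counts of the neuron marker Elavl3, 60 of Stmn2 and 70 of the astrocyte marker Gfap, each at 0 in the other 5 libraries. The other 4 neuron markers with a count, Tubb3, Map2, Dcx and Snap25, were at 0 in High replicate 1, as was the astrocyte marker S100b. The astrocyte markers Slc1a3 and Gja1 had a count in every library. Slc1a3 had 671 and 485 counts on High, 1315 and 1057 on Medium, and 1375 and 1949 on Low. Gja1 had 452 and 181 on High, 205 and 830 on Medium, and 303 and 743 on Low. Tubb3 had 96 and 72 counts on Low and 0 elsewhere, and Map2 had 138 and 20 on Low and 6 in Medium replicate 2. Dcx had 85 counts in Low replicate 2 and at most 1 elsewhere, and Snap25 had 52 in High replicate 2 alone. The part of neurons or astrocytes in the sodium channel values was not tested.

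Voltage-gated calcium channel genes were also sparse, with few counts on Low. Cacna2d1, an auxiliary subunit, had 187 and 102 counts on High, 0 and 21 on Medium, and 0 in both Low libraries. Both High libraries lay above the other 4, at 31.3 ± 9.99 CPM on High. On the floor of 3 counts per library, Low was at least 67.0-fold lower than High, a bound for counting error alone. The adjusted p for Low against High was 0.899 in edgeR's quasi-likelihood test. Cacna1a, the P/Q-type pore, was found on Medium, at 195 and 85 counts, with 1 count in High replicate 2 and 0 elsewhere. For counting error alone, Medium was at least 35.5-fold higher than High and at least 50.5-fold higher than Low. The adjusted p was 0.908 for Medium against High in edgeR's quasi-likelihood test. Cacna1b, the N-type pore, had 94 counts in High replicate 2 and 10 in Low replicate 2, and Cacna1c, an L-type pore, had 21 in High replicate 1 alone. In bulk RNA such differences can come from fewer cells with a transcript or from less of it per cell, and these cannot be told apart.

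Store-operated calcium entry, led by Stim2, had the highest summed level of any channel class in both Low libraries, at 327.9 and 379.9 CPM, but not on the other films. CLC genes led in the High libraries, at 262 and 313 CPM against 158 and 160, and two-pore potassium channels in the Medium libraries, at 252 and 264.9 CPM against 91.9 and 252. Stim2, an ER calcium sensor, had 550 and 372 counts on High, 473 and 1282 on Medium, and 1731 and 2013 on Low. Both Low libraries were highest, and Medium replicate 1 lay between the High libraries in counts and below both after scaling. The group levels were 101 ± 17.3, 145 ± 90.9 and 293 ± 61.3 CPM (SD, n = 2) for High, Medium and Low, and Low against High gave a log2 fold change of 1.54 (SE 0.61, edgeR adjusted p = 0.899). Stim1, its paralog, had 31 counts in Medium replicate 2, 1 in Low replicate 1 and 0 in the other 4 libraries. Of the pore subunits, Orai3 had 24 and 299 counts on High, 6 and 157 on Medium, and 537 and 194 on Low. Both Low libraries lay above both Medium libraries, and High overlapped each of these films. Orai1 had 113 and 0 counts on High, 54 and 21 on Medium, and 0 and 64 on Low. Orai2 had 82 and 2 on High, 5 and 55 on Medium, and 4 and 2 on Low, and so was above 5 counts in 1 library each of High and Medium.

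Release from the ER was represented by the 3 inositol trisphosphate receptors, while the listed ryanodine receptor gene had 0 counts. Itpr2 had 57 and 442 counts on High, 321 and 53 on Medium, and 201 and 253 on Low, so that each film's values overlapped. Itpr1 had 7 and 0 counts on High, 90 and 94 on Medium, and 535 and 122 on Low. Its 4 libraries from Low and Medium exceeded both from High, at 0.718 ± 1.02 CPM on High, 15.4 ± 0.0200 on Medium and 48.8 ± 40.2 on Low (edgeR adjusted p = 0.801 for Low and Medium averaged). Itpr3 had 133 counts in High replicate 2, 98 in Low replicate 2 and 0 elsewhere.

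TRP channels and polycystin were led by Trpm7, with 365 and 659 counts on High, 164 and 289 on Medium, and 84 and 342 on Low. After scaling, both High libraries lay above the other 4, at 116 ± 57.7 CPM on High, 37.6 ± 13.6 on Medium and 34.6 ± 31.9 on Low, a log2 fold change of −1.68 (SE 1.08, edgeR adjusted p = 0.801). With 1 library left out, this fold change ran from −2.43 (without Low replicate 2) to −1.05 (without High replicate 2). Pkd2, polycystin-2, a calcium-permeable channel of the ER and primary cilium, had 515 and 65 counts on High, 0 and 420 on Medium, and 0 in both Low libraries. On the floor of 3 counts per library, Low was at least 129.6-fold lower than High, a bound for counting error alone. The adjusted p was 0.899 in edgeR's quasi-likelihood test. The High mean rested on replicate 1, and Medium replicate 2 lay above High replicate 2. Trpc1 had 31 counts in High replicate 2 and 103 in Medium replicate 2, and Trpv6 had 32 in Medium replicate 2 alone.

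Chloride transport, exchange and mechanosensing gave genes with high counts and uneven replicates. Clcn3, an endosomal chloride and proton exchanger, had 847 and 755 counts on High, 0 and 271 on Medium, and 204 and 828 on Low. The High libraries agreed closely, at 177 ± 3.95 CPM, against 22.1 ± 31.3 on Medium and 83.9 ± 77.0 on Low. Both Low replicates and both Medium replicates lay far apart (log2 fold change −2.03, SE 1.43, edgeR adjusted p = 0.809). Without Medium replicate 2 it was the 1 channel gene past an adjusted p of 0.05, for Low and Medium averaged against High, Medium against High and Low against Medium, in a fit whose sole Medium library held 0 counts of it and which called 242, 275 and 194 genes. Clcn2, a plasma membrane chloride channel, ran from 0 counts in Medium replicate 1 to 526 in Low replicate 1. The sodium-calcium exchanger gene Slc8a1 had 0 and 435 counts on High, 63 and 134 on Medium, and 164 and 120 on Low, with the highest and the lowest value both on High.

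Piezo1, a mechanosensitive cation channel, had 482 and 265 counts on High, 1242 and 350 on Medium, and 564 and 411 on Low, with Medium replicate 1 far above the others. Its log2 fold change was 0.31 (SE 0.80). The gene overlaps Ctu2, which takes part in transfer RNA modification, in the RefSeq annotation, and Ctu2 had 336 and 290 counts on High, 1255 and 459 on Medium, and 292 and 220 on Low. Both were highest in Medium replicate 1. Since the counting is not stated to have used strand, and reads with several alignments were counted, reads of these 2 genes cannot be told apart. Clcn3 overlaps Cbx3l1 and Clcn2 overlaps Fam131a in the same annotation, and no counts of Cbx3l1 or Fam131a were analysed here, so reads from them cannot be told apart either.

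The study singles out 10 calcium channel and exchanger genes, which it reports as down-regulated on Medium and Low. They were chosen on these libraries, so their direction here is not independent evidence. The cutoffs given for its transcriptome comparisons are a fold change and a normalized level, an unlike measure from the adjusted p used here. All 10 had a count, and 9 could be tested. The log2 fold change was below 0 in 9 of 9 in each of the 3 comparisons with High, where 54.1% (Low and Medium averaged), 49.2% (Low) and 51.9% (Medium) of all genes were below 0, with a median of −2.50 for Low and Medium averaged beside −0.12 over all genes. None passed an adjusted p of 0.05 in edgeR's quasi-likelihood test, and Pkd2 alone, 1 of 9, had an unadjusted p under 0.05 for Low and Medium averaged (0.0447), where 5.5% of all genes did. DESeq2 called Pkd2 for that comparison (adjusted p = 2.5e-05), among 375 of all genes. Trpm7 and Cacna2d1 were the only members with both High libraries above the 4 others. For the other 8, the High mean came mostly from 1 library. It came from replicate 1 for Orai1, Orai2, Cacna1c and Pkd2, and from replicate 2 for Slc8a1, Cacna1b, Itpr2 and Itpr3. For Low and Medium averaged against High, 7 of 9 were below 0 with High replicate 1 left out, 6 of 9 with High replicate 2 left out, and 10 of 10 without any 1 of the other 4 libraries. For Medium against High the count was 6 of 9 without either High library and 8 of 10 without Medium replicate 1. For Low against High it was 8 of 9 without High replicate 1, 6 of 9 without High replicate 2 and 9 of 10 without Low replicate 1. Among 10 vascular and meningeal markers, Acta2 had 277 and 423 counts on High, 0 in both Medium libraries, and 0 and 120 on Low. Col1a1 had 38 and 116 counts on High, 0 and 2005 on Medium, and 0 and 1 on Low. Kdr had 57 counts in Medium replicate 2 alone, and Col1a2 had 34 in High replicate 2 alone. Pecam1, Cdh5, Cldn5, Pdgfrb, Rgs5 and Dcn were at 0 throughout. The list, led by Col1a1, summed to 64.6 and 136 CPM on High, 0 and 337 on Medium, and 0 and 20.2 on Low, and the part of such cells in the calcium channel values was not tested.

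**Figure D4:**
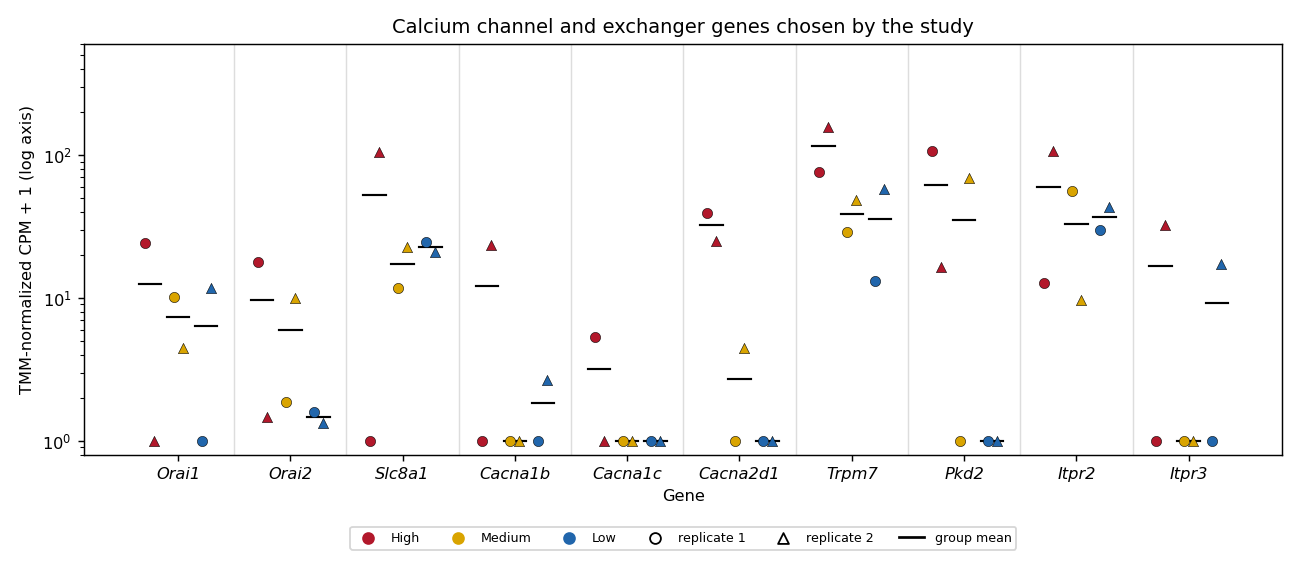
TMM-normalized CPM + 1 (log axis) of the 10 calcium channel and exchanger genes that the study chose on these libraries, per library (red High, yellow Medium, blue Low; circles replicate 1, triangles replicate 2), with group means as bars (n = 2). Both High values exceed the 4 others for Cacna2d1 and Trpm7, and in the other 8 genes 1 High library falls to or below values on Medium or Low.

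Other genes of ion transport were read from lists set for comparison. Of 44 listed genes from other channel families, 25 had a count and 18 were tested, with a median log2 fold change of 0.01. None passed an adjusted p of 0.05 in edgeR's quasi-likelihood test, and Ano6, a calcium-activated scramblase and channel, was the 1 of 18 with an unadjusted p under 0.05 (0.0154, lower), where 5.5% of all genes had one. The mitochondrial outer membrane channel genes Vdac1 and Vdac2 were the most abundant, at 430 and 423 CPM on average. Ligand-gated channel genes were seen for 10 of 41, with 5 tested and 0 past the threshold, and Gria2, an AMPA receptor subunit, led them at 131 CPM. Among calcium pumps and sensors, 16 rows were tested and 0 passed, with 2 of 16 at an unadjusted p under 0.05, where 5.5% of all genes were. Among these was 1 of 2 rows of Calm2, a calmodulin gene (log2 fold change 0.93, SE 0.20, edgeR adjusted p = 0.204), while the other Calm2 row was at −0.34 (SE 0.48, unadjusted p = 0.504). Of 6 listed mitochondrial calcium genes, 4 had a count and 3 were tested, with 0 past the threshold.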

How the data were processed

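QuantSeq 3′ reads were mapped by the authors with Bowtie2, and Bedtools assigned them to genes, reads with several alignments included. Raw whole-number counts were deposited, 1 table per library. The submitters' processing notes name rn6, the annotation is not given in the sources used here, and no coordinates are given. The labels name Trizol and the methods a Ribospin kit for RNA isolation.

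Counts were filtered with filterByExpr, scaled with TMM and tested with edgeR 4.0.16 (quasi-likelihood, Benjamini-Hochberg over 7729 genes, threshold 0.05) in R 4.3.3, with all 6 libraries in a fit of 3 group means (common dispersion 2.04, 3 residual degrees of freedom). limma 3.58.1 and DESeq2 1.42.0 were alternatives, beside other scalings, filters, a replicate block and left-out libraries. The fit was tested on simulated counts. A group whose libraries all held 3 counts or fewer was set to 3 per library, and folds against it are bounds for counting error alone.

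All 61 symbols matched the RefSeq table (GRCr8), used for overlapping and neighbouring genes alone. Members, gene lists and the study's list were chosen with earlier results of these data known. Named genes were those with a count in all libraries, the 10 most abundant, those past an adjusted p of 0.05, or an unadjusted p of 0.05 for Low and Medium averaged against High, those with replicates within 2-fold on every film, the study's 10, the highest 5 seen in 1 library and the leader of each class. Kcnd3, Kcnj14, Kcnk3, Itpr1, Stim1, Trpc1, Trpv6, Scn1a, Scn7a, the overlapping genes and the genes named from other lists fall outside that rule and were chosen after their values were seen. No columns of other samples were present (0). A few genes are not reported here by name.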

Additional observations from a re-analysis of the deposited data

How the results depend on the processing

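In all 4 comparisons, edgeR's quasi-likelihood test gave 0 channel genes past an adjusted p of 0.05 with other size factors, with library sizes alone, without ribosomal RNA rows and under both other filters, and in the 3 comparisons of a pair of films also on the compared films alone. DESeq2 gave 3, 2, 1 and 1 of 28 for Low and Medium averaged against High, Low against High, Medium against High and Low against Medium. It called 375, 300, 307 and 116 of all genes in these comparisons. With 1 library left out the counts ran from 0 to 1 for each comparison except Low against High (0 in each fit), and the 1 was Clcn3 without Medium replicate 2. The number of channel genes whose Low and Medium libraries lay on one side of High ran from 6 without Low replicate 2 to 20 without High replicate 2, and was 15 without High replicate 1, 10 without Medium replicate 1, 8 without Medium replicate 2 and 7 without Low replicate 1. As a share of the channel genes tested this was 45.5% without High replicate 2, beside 36.5% of all genes, and in the other fits it lay below the share of all genes (36.6% and 37.2% without High replicate 1, 20.8% and 23.4% without Medium replicate 1, 18.6% and 21.9% without Medium replicate 2, 14.9% and 21.9% without Low replicate 1, 13.6% and 21.1% without Low replicate 2). Log2 fold changes with 1 library left out were followed for 10 channel genes, and 5 of them changed sign, namely Itpr2 (−1.73 to 1.52), Kcnc1 (−1.22 to 1.06), Orai2 (−3.75 to 1.63), Orai3 (−2.34 to 2.45) and Piezo1 (−0.30 to 0.68), none of them past the threshold. The other 5 did not change sign, namely Kcnk15 (1.19 to 1.82), Kcng4 (−1.10 to −0.31), Pkd2 (−11.4 to −4.17), Stim2 (0.60 to 1.30) and Trpm7 (−2.43 to −1.05). Of the study's list, for Low and Medium averaged, 7 of 9 were below 0 without High replicate 1 and 6 of 9 without High replicate 2, so genes not followed singly also changed sign. Kcnc1 was at −0.0683 in limma-voom. The cause of these changes was not tested. Library sizes alone moved the median of all genes by 0.38, to 0.26, with 41.8% of all genes below 0. In that fit 19 of 28 channel genes were below 0 with a median of −0.52. A limit of 5 CPM for detection gave 10 genes in Medium replicate 1 and 23 in Medium replicate 2. The channel genes tested with all 6 libraries were also followed with 1 library left out, an alternative chosen after seeing the data. Those below 0 ran from 11 of 27 (without High replicate 2) to 21 of 28 (without Medium replicate 2 or Low replicate 1). Of all genes tested with all 6 libraries, 49.2%, 62.8% and 55.4% were below 0 in these 3 fits. Others chosen so left 53 to 60 channel genes with 1 library left out, 9 to 12 in every library and 22 to 28 in a single library. Reading the rule more widely gave 63 genes. Samples with the same replicate number did not deviate together (correlations of 0.0034 to 0.0073 over 7729 genes). This gave no sign of pairing by number. Replicates of a film correlated at only 0.607 to 0.638 in log2 CPM, so whether numbers share a culture or batch cannot be told from it. The fit with the replicate block called 0 channel genes in each comparison (57, 30, 39 and 0 of all genes, instead of 10, 4, 1 and 0), and Orai3 was at 0.38 in it instead of −0.49.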

Other observations

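Among genes of other channel families, Panx1, a large-pore channel, had 0 and 2 counts on High, 208 and 415 on Medium, and 194 and 83 on Low, with High below all 4 others. Ano6 had 1106 and 1046 counts on High, 1149 and 775 on Medium, and 130 and 313 on Low, and both Low libraries lay below the 4 others before scaling. After scaling, the Medium libraries also lay below both High libraries, with means of 238 CPM on High, 161 on Medium and 35.5 on Low. Neither passed an adjusted p of 0.05 in edgeR's quasi-likelihood test (0.801 for Panx1 and 0.778 for Ano6). Of 7 microglia markers, Aif1 (49 counts in Low replicate 1) and Ptprc (28 in Medium replicate 2) had a count. Of 8 oligodendrocyte lineage markers, Sox10 was at 0 and Olig2 led, and of 7 astrocyte markers Aqp4, Aldh1l1 and Slc1a2 were at 0 and Slc1a3 led.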
